A study of Mus musculus with 15 samples.

Results

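Enzyme genes of arginine use and polyamine synthesis were followed in mouse islets after overexpression of a constitutively active (ca) NFAT, a transcription factor that calcium and calcineurin normally switch on. The 10 genes were Arg1, Arg2, Odc1, Oat, Amd1, Srm, Sms, Sat1, Nos2 and Ass1, out of the 20308 rows of the expression table. The set was chosen by a measured value, because Arg2 was far higher with either ca-NFAT than with GFP, so the Arg2 values against GFP are given as a description with no test, and the other 9 genes were listed by the role of their enzyme. All 10 were among the 14151 genes that passed the filter on low values. With GFP, Arg2 lay near the filter's threshold of 10, at 4.49 to 11.1 normalized expected counts. With either ca-NFAT it lay far above that threshold.

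Whole islets came from C57BL/6 mice. On each of 5 days the islets of 6 mice were pooled, and the pool was divided among an adenovirus for GFP (the control), one for ca-Nfatc1 and one for ca-Nfatc2. Both mutants are mouse proteins with serines of the regulatory domain changed to alanine, and the cytomegalovirus promoter that drove the transgenes is not specific to one islet cell type. RNA was collected 48 hr later, which gave 3 groups of 5 libraries, and in each group the replicate number marks the day. All groups carried an adenovirus, and islets without virus were not analysed here.

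Arginase splits arginine into urea and ornithine. Arg1 encodes the cytosolic arginase known best from liver and from macrophages, and Arg2 the mitochondrial arginase of many other tissues. Ornithine leaves this branch point by ornithine decarboxylase, which makes putrescine for the polyamines, or by ornithine aminotransferase, which leads to proline and glutamate. Spermidine synthase and spermine synthase then add aminopropyl groups that come from decarboxylated S-adenosylmethionine. Nitric oxide synthases compete for the same arginine and release citrulline, which argininosuccinate synthase returns towards arginine. In beta cells, nitric oxide from the inducible synthase Nos2 is known for its part in cytokine injury, and polyamines are abundant in insulin secretory granules.

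The sequence before the start site is shown for Sms, Amd1 and Sat1, which are the members of the promoter table that were called higher with at least one ca-NFAT than with GFP. Each window holds the 250 bases before a RefSeq gene start (assembly GRCm38.p6), written 5' to 3' on the strand of the gene, which is the minus strand for all of them. They lie at chrX:157492288-157492537 for Sms, chr10:40302189-40302438 for Amd1 and chrX:155216450-155216699 for Sat1. Capitals mark an E-box (CACGTG) in the Sms window and the TATA box letters (TATAA, read on either strand and overlapping) in the Amd1 window.
Sms: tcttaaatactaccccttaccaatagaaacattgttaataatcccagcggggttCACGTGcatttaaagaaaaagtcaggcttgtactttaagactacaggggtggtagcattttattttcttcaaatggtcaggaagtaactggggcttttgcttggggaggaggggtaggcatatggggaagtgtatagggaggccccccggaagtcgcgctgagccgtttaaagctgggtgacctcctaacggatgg
Amd1: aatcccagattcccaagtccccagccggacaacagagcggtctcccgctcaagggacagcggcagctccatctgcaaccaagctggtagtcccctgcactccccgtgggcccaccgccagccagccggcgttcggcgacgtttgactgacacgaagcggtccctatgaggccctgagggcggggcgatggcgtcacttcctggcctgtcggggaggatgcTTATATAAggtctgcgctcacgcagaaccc
Sat1: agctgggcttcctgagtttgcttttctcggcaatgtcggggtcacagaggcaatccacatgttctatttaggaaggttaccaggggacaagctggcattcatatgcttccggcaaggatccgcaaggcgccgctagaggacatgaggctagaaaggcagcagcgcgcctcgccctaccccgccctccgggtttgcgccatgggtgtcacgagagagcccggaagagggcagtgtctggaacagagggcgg
RefSeq windows were matched by symbol for 6 of the 10 members (Amd1, Ass1, Oat, Odc1, Sat1 and Sms, the last with 2 windows), and Arg1, Arg2, Srm and Nos2 were not matched. Letter patterns were searched on both strands, namely the NFAT core GGAAA, the E-box CACGTG, the AP-1 pattern TGANTCA and TATAA. The E-box began 196 bases before the start of Sms whose window is printed, and was not in the window of its other start, at chrX:157491369-157491618. It began 36 bases before the start of Ass1, and TATAA was found in the Amd1 window alone, 30 and 27 bases before the start. None of the 7 windows of these members held GGAAA or TGANTCA. Among 32851 windows of the same length, 55.6% held GGAAA, 6.02% CACGTG, 6.75% TGANTCA and 22.8% TATAA. A match describes letters only and is not a site of binding.

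The libraries held 13358317 to 21129008 expected counts, and values are given as normalized expected counts, in which 1 expected count of a library is worth 0.778 to 1.344. A low value such as that of Arg2 with GFP therefore rests on few reads. Libraries of one group correlated more closely (r = 0.9745 to 0.9927 across genes) than libraries of different groups (0.8723 to 0.9613). All 9 beta cell markers, Ins1 and Ins2 among them, were present in every group, and their summed level was 1133000 to 1684000 in GFP islets, 787800 to 1178000 in ca-Nfatc1 islets and 526000 to 950100 in ca-Nfatc2 islets. By limma's adjusted p, 7 of these 9 markers fell with ca-Nfatc1 and all 9 fell with ca-Nfatc2. Over all 14151 genes, 28.4% and 32.8% were called lower in these comparisons. In whole islets, fewer cells of a type and less RNA per cell cannot be told apart.

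With either ca-NFAT, Arg2 was far above its GFP level and Arg1 fell. Arg2 (chromosome 12, 79130788 to 79156301, GRCm38.p6) was near the floor with GFP, at 9.64, 9.46, 4.49, 11.1 and 10.1 normalized expected counts in replicates 1 to 5. With ca-Nfatc1 it stood at 2834, 2371, 2118, 2157 and 2361. With ca-Nfatc2 it stood at 1828, 1493, 1318, 1292 and 1378. The 3 groups did not overlap, and ca-Nfatc1 was above ca-Nfatc2 on each of the 5 days. The means were 8.97 ± 2.59, 2368 ± 285 and 1462 ± 219 (SD, n = 5), which are ratios to GFP of 264 and 163. On the log2(value + 1) scale the differences from GFP were 7.94 and 7.24, the 5th and the 26th largest among 14151 genes, and ca-Nfatc2 was lower than ca-Nfatc1 by a log2 difference of -0.70. These differences depend on the pseudocount because the GFP level is so low, and with a pseudocount of 10 they were 6.97 and 6.28.

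Arg1 (chromosome 10, 24915207 to 24927470) was the arginase of the control islets. Its values with GFP were 582, 708, 717, 639 and 644 normalized expected counts. With ca-Nfatc1 they were 457, 487, 448, 419.7 and 337. With ca-Nfatc2 they were 354.2, 336, 406, 120.4 and 239. No GFP library overlapped either ca-NFAT group, and on all 5 days the order was GFP, then ca-Nfatc1, then ca-Nfatc2. The means were 658 ± 55.1, 429.8 ± 56.9 and 291 ± 113 (SD, n = 5). Arg1 fell with ca-Nfatc1 (log2 difference -0.62, SE 0.231, limma adjusted p = 0.0293) and fell further below GFP with ca-Nfatc2 (log2 difference -1.29, SE 0.231, limma adjusted p = 8.75e-05), and was lower with ca-Nfatc2 than with ca-Nfatc1 (log2 difference -0.67, limma adjusted p = 0.0237).

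Several Arg1 calls turned on single libraries. The call with ca-Nfatc1 was lost without GFP replicate 2 or 3 or without ca-Nfatc1 replicate 4 or 5 (limma adjusted p = 0.0573, 0.0577, 0.0501 and 0.0751), whereas without ca-Nfatc2 replicate 4 the adjusted p was 0.000391. The difference between the 2 ca-NFATs was -0.38 on the log2 scale without ca-Nfatc2 replicate 4 (limma adjusted p = 0.0264), and its call was lost without ca-Nfatc1 replicate 2 or ca-Nfatc2 replicate 5 (0.0547 and 0.0519).

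Macrophages also express Arg1, so leukocyte markers were read beside it. The summed level of 15 leukocyte markers was 1955 to 2884 normalized expected counts in GFP islets, 1993 to 2756 in ca-Nfatc1 islets and 1673 to 1859 in ca-Nfatc2 islets, and the T cell marker Cd3e was at 0 in all GFP and ca-Nfatc1 libraries. Of the 14 markers above the filter, 1 rose and 2 fell with ca-Nfatc1, and 3 rose and 6 fell with ca-Nfatc2 (limma adjusted p). The shares of all genes called higher and lower were 28.4% and 28.4% with ca-Nfatc1, and 35.7% and 32.8% with ca-Nfatc2. In ca-Nfatc2 replicate 4, where Arg1 was lowest, the leukocyte sum was 1758, the median of its group. Other marker sums were extreme in that library. Those of beta cells (526000) and alpha cells (165000) were the lowest of all libraries, and that of duct cells (12270) was the highest. The alpha cell sum was 380400 to 603800 in GFP islets, 216900 to 263300 in ca-Nfatc1 islets and 165000 to 222400 in ca-Nfatc2 islets. The part of these marker levels in the Arg1 result was not tested.

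Per kb of transcript, which allows the 2 genes to be compared, Arg1 and Arg2 together came to 452 ± 36.3 normalized expected counts per kb in GFP islets, 1950 ± 210 in ca-Nfatc1 islets and 1220 ± 198 in ca-Nfatc2 islets (SD, n = 5). Arg2 made up 1.41% ± 0.455 of that sum in GFP islets, 85.0% ± 2.09 in ca-Nfatc1 islets and 84.2% ± 5.34 in ca-Nfatc2 islets. The control islets thus held almost only the cytosolic enzyme's mRNA and the ca-NFAT islets mostly that of the mitochondrial one, in every library. Arg2 chose the set, so this share is a description.

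**Figure D1:**
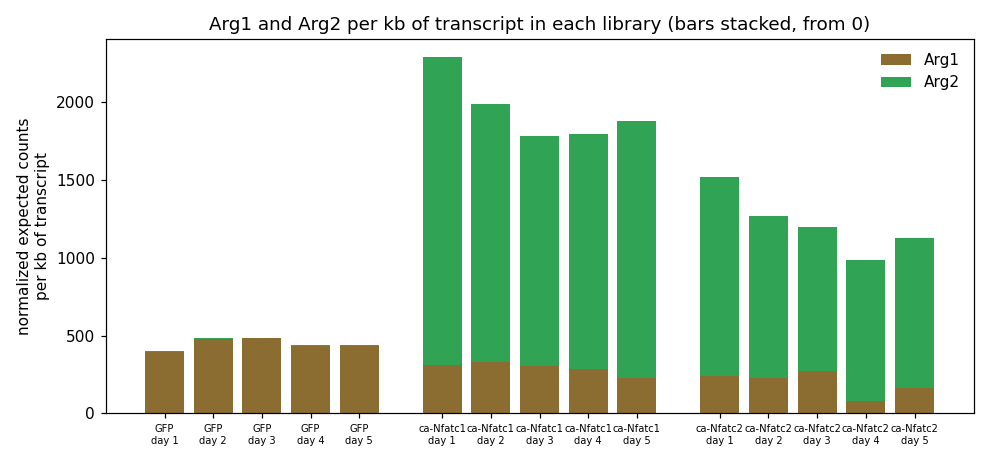
Arg1 (brown) and Arg2 (green) in normalized expected counts per kb of transcript, stacked from 0, in each of the 15 libraries. Arg2 takes 0.644% to 1.77% of the stacked sum in the GFP libraries, 83.0% to 87.9% with ca-Nfatc1 and 77.1% to 91.7% with ca-Nfatc2.

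Over the 9 members other than Arg2, 1 rose with ca-Nfatc1 (Sms), 4 fell (Arg1, Odc1, Oat and Srm) and 4 were not called. Over all 14151 genes, 28.4% were called higher and 28.4% lower in this comparison. With ca-Nfatc2, 4 members rose (Amd1, Srm, Sms and Sat1), 2 fell (Arg1 and Oat) and 3 were not called, where 35.7% of all genes were higher and 32.8% lower. Against ca-Nfatc1, ca-Nfatc2 had 3 members higher (Odc1, Amd1 and Srm), 1 lower (Arg1) and 5 not called, where 23.6% of all genes were higher and 25.7% lower. The median log2 difference of the 9 was -0.43, 0.31 and 0.37 in these comparisons, and that of all genes was -0.03, 0.01 and -0.04. The first 2 comparisons share the GFP libraries. The library ca-Nfatc2 replicate 4 was the lowest or highest of its group for 7 of these 9 members. Without it, and with no day term, 1 member rose and 5 fell with ca-Nfatc1, and 3 rose and 3 fell with ca-Nfatc2. That fit called 58.4% of all genes with ca-Nfatc1 (49.6% of the calls higher) and 67% with ca-Nfatc2 (51.9% of the calls higher).

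**Figure D2:**
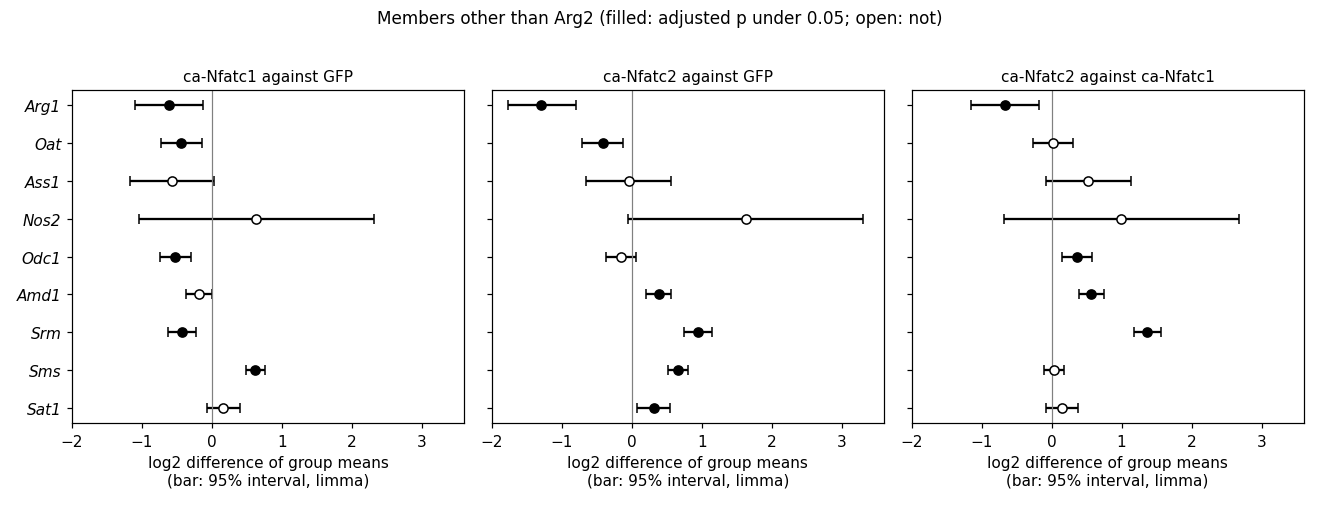
Log2 difference of group means for the 9 members other than Arg2, with 95% intervals from limma, for each pair of groups. Filled points passed an adjusted p of 0.05. Srm lies below 0 with ca-Nfatc1 (-0.43) and above 0 with ca-Nfatc2 (0.94), and the intervals of Nos2 and Ass1 are the widest.

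The enzymes of polyamine synthesis did not move as one group with either ca-NFAT. Odc1 (chromosome 12, 17544808 to 17551502), ornithine decarboxylase, is the entry enzyme of the pathway. It ranged from 4125 to 5570 normalized expected counts with GFP (median 4926), from 2945 to 3747 with ca-Nfatc1 (median 3490) and from 3785 to 5601 with ca-Nfatc2 (median 4073). The ca-Nfatc1 libraries lay below all others. Of the ca-Nfatc2 libraries, replicates 1, 2 and 3 (3977, 3785 and 4073) lay below every GFP library and replicate 4 (5601) above every one. On 1 of the 5 days ca-Nfatc2 was above GFP. Odc1 fell with ca-Nfatc1 (log2 difference -0.52, SE 0.103, limma adjusted p = 0.000323) and was higher with ca-Nfatc2 than with ca-Nfatc1 (0.37, limma adjusted p = 0.00723). With ca-Nfatc2 the log2 difference from GFP was -0.16 (95% interval -0.374 to 0.061, limma adjusted p = 0.188). This adjusted p was 0.0361 with the day as a block, and without ca-Nfatc2 replicate 4 the difference was -0.24 (limma adjusted p = 0.0269).

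Amd1 (chromosome 10, 40287458 to 40302188) encodes S-adenosylmethionine decarboxylase, which makes the aminopropyl donor. Its range was 3532 to 4771 normalized expected counts with GFP (median 3798), 3143 to 3830 with ca-Nfatc1 (median 3598) and 4714 to 5798 with ca-Nfatc2 (median 5234). The ca-Nfatc2 libraries were above all ca-Nfatc1 libraries and overlapped GFP through 1 GFP library, replicate 1. Amd1 rose with ca-Nfatc2 (log2 difference 0.38, SE 0.0852, limma adjusted p = 0.000698) and was higher there than with ca-Nfatc1 (0.57, limma adjusted p = 3.06e-05). With ca-Nfatc1 it was lower than with GFP on all 5 days by a log2 difference of -0.19 that was not called (limma adjusted p = 0.0724) but passed with the day as a block (0.00912) and without GFP replicate 3 (0.0361). Of the stretches of 50 bases in the Amd1 transcript, 86.1% also occur in Amd2, a near copy with 54.6 to 66.1 normalized expected counts on average per group, so the split of reads between these genes is uncertain. No other member shares such stretches with another gene.

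Srm and Sms encode the aminopropyl transferases. Srm (chromosome 4, 148591513 to 148594619), spermidine synthase, had 464, 607, 542, 568 and 576 normalized expected counts with GFP. It had 361, 371, 411, 449 and 461 with ca-Nfatc1. It had 944, 1071, 1007, 1256 and 1038 with ca-Nfatc2. The groups did not overlap in any pair, with ca-Nfatc1 lowest and ca-Nfatc2 highest on every day. Srm fell with ca-Nfatc1 (log2 difference -0.43, SE 0.0929, limma adjusted p = 0.000782) and rose with ca-Nfatc2 (0.94, SE 0.0929, limma adjusted p = 7.44e-08). The difference between the 2 ca-NFATs was 1.37 (limma adjusted p = 3.22e-09), a ratio of means of 2.59.

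Sms (chromosome X, 157443851 to 157492287), spermine synthase, whose upstream sequence is printed above, behaved differently from its partner enzyme. Its values were 1158, 1234, 1018, 1088 and 1103 normalized expected counts with GFP. They were 1739, 1866, 1561, 1782 and 1660 with ca-Nfatc1. They were 1813, 1868, 1749, 1573 and 1829 with ca-Nfatc2. Both ca-NFAT groups lay above every GFP library and overlapped each other. Sms rose with ca-Nfatc1 (log2 difference 0.62, SE 0.0665, limma adjusted p = 3.4e-07) and with ca-Nfatc2 (0.66, SE 0.0665, limma adjusted p = 1.06e-07), that is 1.54-fold and 1.58-fold by the means. Between the 2 ca-NFATs the log2 difference was 0.04 with a 95% interval of -0.103 to 0.177 (limma adjusted p = 0.674). Per kb of transcript, Srm stood at 412 ± 40.3, 307 ± 33.5 and 795 ± 87.8 and Sms at 301 ± 21.7, 463 ± 31.4 and 475 ± 31.3 with GFP, ca-Nfatc1 and ca-Nfatc2 (SD, n = 5). The spermidine synthase mRNA was thus the more abundant of the pair with GFP and ca-Nfatc2 and the less abundant with ca-Nfatc1, by these mean levels. This order rests on the transcript lengths used, 1338 bases for Srm and 3717 for Sms. Before division by length, Sms had the higher mean in every group.

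**Figure D3:**
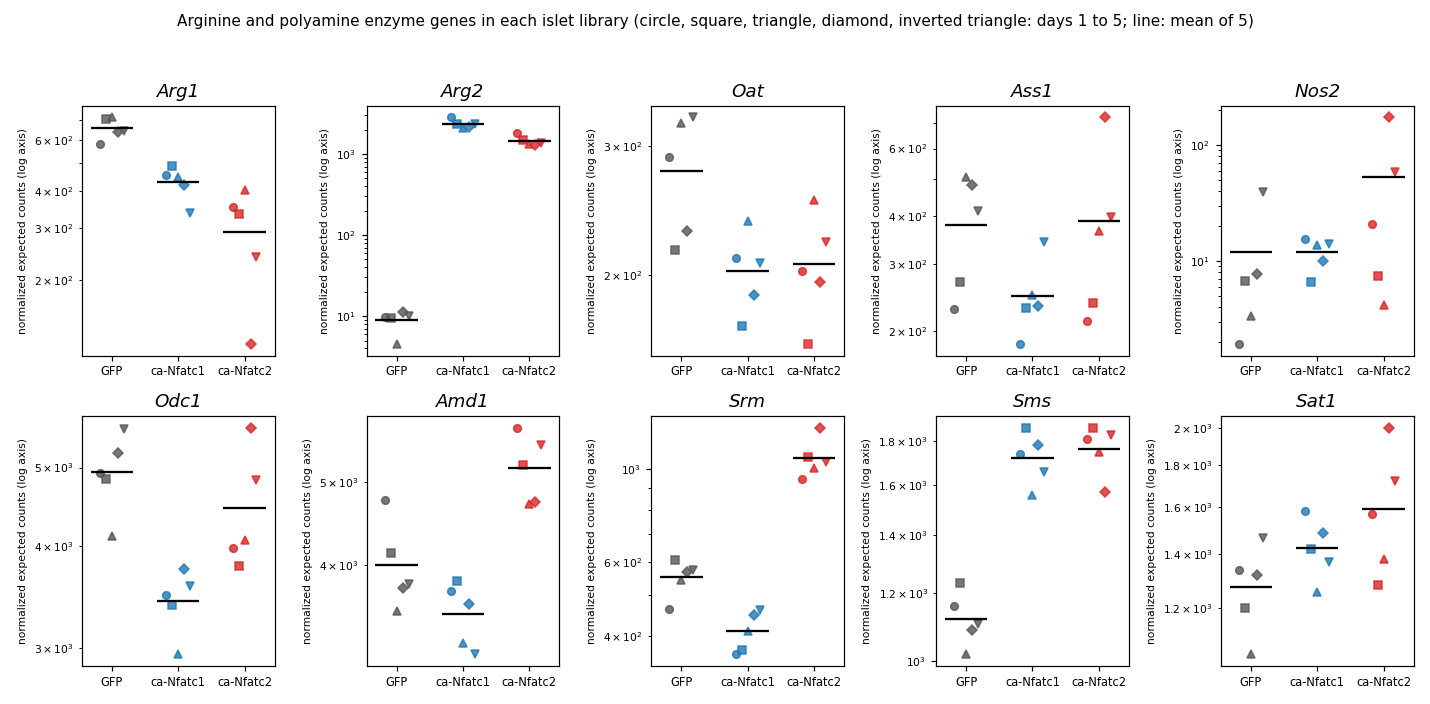
Normalized expected counts of the 10 genes in each library, on log axes that differ between panels, by group. Symbols mark the day and lines the mean of 5 libraries. Srm separates all 3 groups, Sms lies at 1018 to 1234 with GFP and at 1561 to 1868 with either ca-NFAT, and Nos2 and Ass1 spread widely within groups.

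Sat1 (chromosome X, 155213126 to 155216449) encodes the acetyltransferase that marks spermidine and spermine for export and oxidation. It ranged from 1051 to 1465 normalized expected counts with GFP (median 1318), from 1254 to 1582 with ca-Nfatc1 (median 1417) and from 1279 to 2005 with ca-Nfatc2 (median 1569). All groups overlapped, and ca-Nfatc2 was above GFP on all 5 days. Sat1 rose with ca-Nfatc2 (log2 difference 0.31, SE 0.111, limma adjusted p = 0.019), and the call was lost without GFP replicate 3 (0.0613) or ca-Nfatc2 replicate 4 (0.0599). With ca-Nfatc1 the log2 difference was 0.16 (95% interval -0.071 to 0.395, limma adjusted p = 0.223).

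Oat (chromosome 7, 132557475 to 132576398), ornithine aminotransferase of the mitochondrial matrix, fell with both. Its values with GFP were 289.8, 216, 323, 229.8 and 329 normalized expected counts. With ca-Nfatc1 they were 211, 170.5, 237, 188 and 208. With ca-Nfatc2 they were 203, 161, 254, 196 and 222. The ranges overlapped, but on each of the 5 days the GFP library was the highest. The log2 difference was -0.44 with ca-Nfatc1 (SE 0.139, limma adjusted p = 0.0121) and -0.42 with ca-Nfatc2 (SE 0.139, limma adjusted p = 0.013). Between the 2 ca-NFATs it was 0.02 (95% interval -0.27 to 0.314, limma adjusted p = 0.911). Per kb of transcript, Oat was below Odc1 in every group (129 ± 24.2 against 2235 ± 242 with GFP, SD, n = 5).

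Ass1 and Nos2 belong to the citrulline and nitric oxide branch and were the members with the widest spread. Ass1 (chromosome 2, 31470270 to 31520670), argininosuccinate synthase, had 228, 269, 505, 483 and 413 normalized expected counts with GFP. It had 185, 230.2, 248.5, 233 and 342 with ca-Nfatc1. It had 213, 237, 364.5, 724 and 398 with ca-Nfatc2. The values varied by day in every group, with day 1 lowest in each, and ca-Nfatc1 was the lowest group on every day. Neither comparison with GFP was called, with log2 differences of -0.57 (SE 0.286, limma adjusted p = 0.098) for ca-Nfatc1 and -0.04 (SE 0.286, limma adjusted p = 0.9) for ca-Nfatc2. In the fit with the day as a block, Ass1 was lower with ca-Nfatc1 than with GFP (adjusted p = 0.00978) and higher with ca-Nfatc2 than with ca-Nfatc1 (0.0174, against 0.137 without the block). The first comparison also passed without GFP replicate 1 (0.0381) or ca-Nfatc2 replicate 4 (0.0409), and the second without ca-Nfatc2 replicate 1 (0.0478).

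Nos2 (chromosome 11, 78920787 to 78960226), the inducible nitric oxide synthase, was low in most libraries. With GFP it had 1.92, 6.72, 3.35, 7.77 and 39.6 normalized expected counts. With ca-Nfatc1 it had 15.6, 6.64, 13.9, 10.1 and 14.0. With ca-Nfatc2 it had 20.8, 7.37, 4.21, 173.5 and 58.7. Day 5 with GFP and days 4 and 5 with ca-Nfatc2 stood above the other 12 libraries, and all groups overlapped. The difference of ca-Nfatc2 from GFP was in the same direction on all 5 days but was not called (log2 difference 1.63, SE 0.797, limma adjusted p = 0.0785), and with the day as a block the adjusted p was 0.0331. It passed without GFP replicate 5 (log2 difference 2.21, adjusted p = 0.0169) or either of ca-Nfatc2 replicates 2 and 3 (0.0379 and 0.0174), and without ca-Nfatc2 replicate 4 it was 0.93 (adjusted p = 0.248). With ca-Nfatc1 the log2 difference was 0.63 (95% interval -1.046 to 2.311, limma adjusted p = 0.516). With GFP only replicate 5 was above the filter's threshold of 10, so Nos2 passed the filter through the ca-NFAT libraries. Its p-values against GFP, those that passed among them, are therefore descriptions and no support for a rise. In ca-Nfatc2 replicate 4, Nos2, Ass1, Sat1, Odc1 and Srm were highest and Arg1, Arg2 and Sms lowest of the group. There the beta cell (526000) and alpha cell (165000) marker sums were the lowest of the 15 libraries. The duct marker sum was the highest of the 15 (12270, against a group median of 6211), and the acinar marker sum the highest of its group (133.7). The duct markers did not move together. Of 6 above the filter, 4 rose, Krt7 fell and Spp1 was not called with ca-Nfatc2 (limma adjusted p). The shares of all genes called higher and lower there were 35.7% and 32.8%. The part of these marker sums in the result was not tested.

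**Figure D4:**
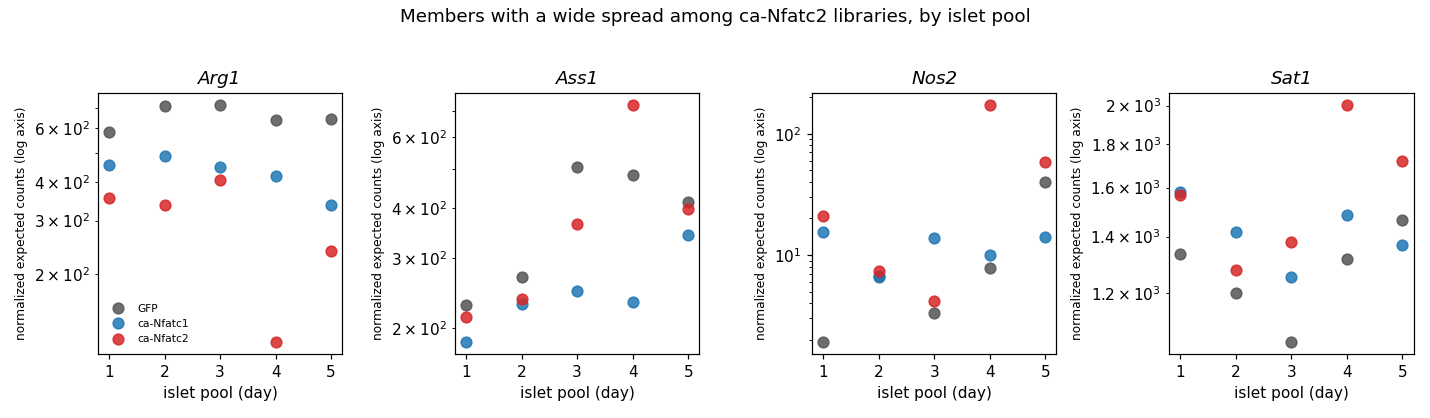
Normalized expected counts (log axes) of Arg1, Ass1, Nos2 and Sat1 by islet pool, which is the day, with GFP in grey, ca-Nfatc1 in blue and ca-Nfatc2 in red. On day 4 the ca-Nfatc2 library is the lowest of all for Arg1 (120.4) and the highest for Ass1 (724), Nos2 (173.5) and Sat1 (2005).

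The other genes of these pathways were read from 8 lists with 66 genes, of which 57 passed the filter. With ca-Nfatc1, 18 rose, 19 fell and 20 were not called, and with ca-Nfatc2, 24 rose, 14 fell and 19 were not called (limma adjusted p), where the shares of all 14151 genes called higher and lower were 28.4% and 28.4% in the first comparison and 35.7% and 32.8% in the second. These counts, and those of single lists that follow, are descriptions and were not tested against other genes, and 2 of the genes counted as higher in both comparisons, Slc22a2 and Nags, passed the filter only through the ca-NFAT libraries. Against ca-Nfatc1, ca-Nfatc2 had 17 higher and 12 lower, where 23.6% of all genes were higher and 25.7% lower. The median log2 difference over the 57 was 0.04, 0.16 and 0.03.

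**Figure D5:**
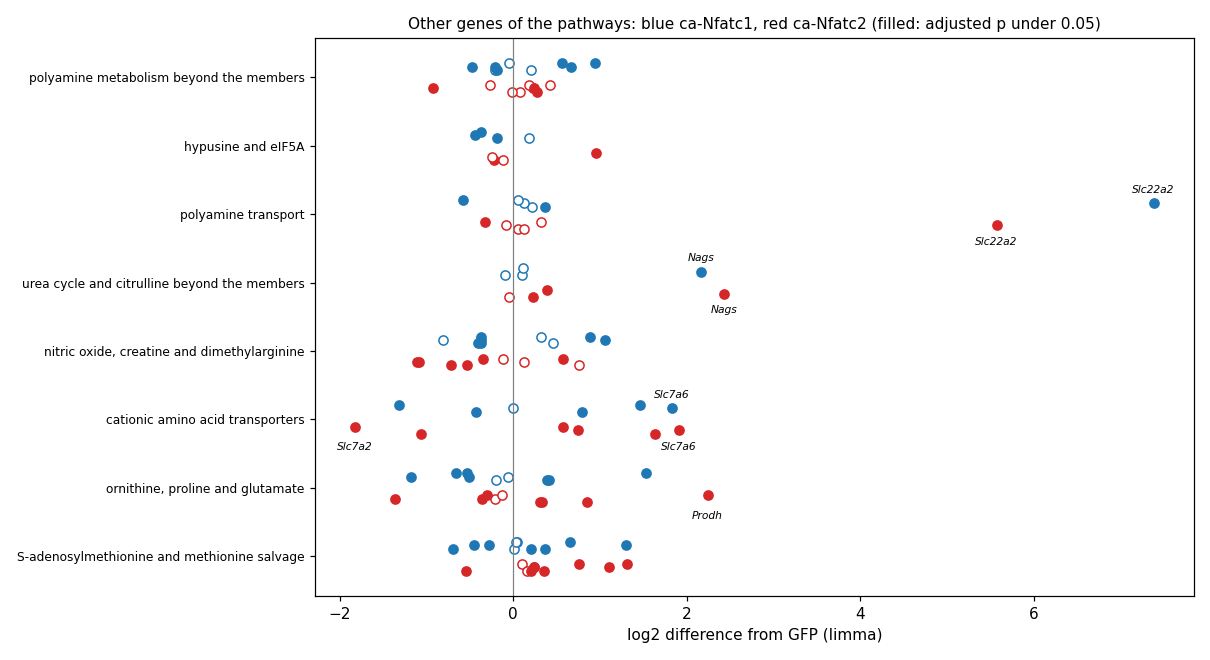
Log2 difference from GFP of the 57 tested pathway genes by list, with ca-Nfatc1 in blue and ca-Nfatc2 in red, filled where limma's adjusted p was under 0.05. Slc22a2 lies far to the right with both (7.38 and 5.57), and Slc7a2 is the lowest point with either (-1.32 and -1.82). Slc22a2 and Nags passed the filter only through the ca-NFAT libraries, so their filled points are descriptions.

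Arginine enters cells through cationic amino acid transporters, and all 6 of that list passed the filter. With ca-Nfatc1, 3 rose and 2 fell, and with ca-Nfatc2, 4 rose and 2 fell, where the shares over all genes were 28.4% and 28.4%, and 35.7% and 32.8%. Slc7a2, which encodes the transporter CAT-2, averaged 9248 ± 1450 normalized expected counts with GFP and fell to 3685 ± 445 in ca-Nfatc1 islets and 2650 ± 632 in ca-Nfatc2 islets (SD, n = 5; log2 differences -1.32 and -1.82, limma adjusted p = 5.04e-07 and 5.09e-09). Slc7a6, which encodes y+LAT2, an exchanger of cationic for neutral amino acids, rose from 593 ± 66.4 to 2097 ± 118 and 2234 ± 228 (limma adjusted p = 1.99e-12 and 8.91e-13). Slc7a3, the transporter CAT-3, rose from 94.2 ± 9.38 to 164 ± 14.6 in ca-Nfatc1 islets and 294 ± 18.1 in ca-Nfatc2 islets (limma adjusted p = 1.25e-06 and 5.65e-11). Slc7a1, the widely expressed transporter CAT-1, was chosen for mention after its values were seen, and it rose with ca-Nfatc2 from 1647 ± 286 to 2767 ± 442 (limma adjusted p = 8.35e-05) and stood at 1640 ± 240 with ca-Nfatc1 (limma adjusted p = 0.996).

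Among 9 tested genes of polyamine control and breakdown, 3 rose and 3 fell with ca-Nfatc1 (28.4% and 28.4% over all genes) and 3 rose and 1 fell with ca-Nfatc2 (35.7% and 32.8% over all genes). Oaz2, an antizyme that binds ornithine decarboxylase and sends it to the proteasome, averaged 1866 ± 84.3 normalized expected counts in GFP islets, rose to 2974 ± 171 with ca-Nfatc1 (log2 difference 0.67, limma adjusted p = 4.06e-08) and rose less with ca-Nfatc2, to 2215 ± 176 (0.24, limma adjusted p = 0.00185). The difference between the ca-NFATs was -0.43 (limma adjusted p = 1.89e-05). Azin1, the antizyme inhibitor, fell with ca-Nfatc1 from 4065 to 3507 (limma adjusted p = 0.0242) and rose with ca-Nfatc2 to 4766 (limma adjusted p = 0.0109). The Azin1 call with ca-Nfatc1 was lost without GFP replicate 1 (0.07), ca-Nfatc1 replicate 3 (0.0635) or ca-Nfatc1 replicate 4 (0.0553), and with equal library totals (0.0807). Paox, an oxidase of acetylated polyamines, was called higher with ca-Nfatc2 (129 against 106.5, limma adjusted p = 0.0301), a call that 6 libraries each ended when left out, GFP replicates 1 and 2 and ca-Nfatc2 replicates 1, 3, 4 and 5 (0.0557 to 0.0763), as did quantile normalization (0.554). Neither Amd2 nor Smox, the spermine oxidase, was called in any comparison, though Smox with ca-Nfatc2 (149 against 178) had an adjusted p of 0.0274 with the day as a block, 0.0299 without GFP replicate 1 and 0.0281 without ca-Nfatc2 replicate 4.

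Spermidine is also the donor for hypusine, a modified lysine found in the translation factor eIF5A. Eif5a was at 5255 ± 219 normalized expected counts in GFP islets, 4069 ± 301 in ca-Nfatc1 islets and 10220 ± 781 in ca-Nfatc2 islets (SD, n = 5), with no overlap between any groups. It fell with ca-Nfatc1 (log2 difference -0.37, limma adjusted p = 8.55e-05) and rose with ca-Nfatc2 (0.96, limma adjusted p = 4.55e-10), which is the order seen for Srm. Of the enzymes that form hypusine, Dohh fell with ca-Nfatc1 from 833 to 608 (limma adjusted p = 0.00372), and with ca-Nfatc2 it stood at 696.5 (limma adjusted p = 0.0749, and 0.00271 without GFP replicate 5). Dhps fell with ca-Nfatc2 from 350.3 to 301 (limma adjusted p = 0.017). With ca-Nfatc1 Dhps was at 307 (limma adjusted p = 0.0417), a call that ended when any of 8 libraries was left out, namely GFP replicates 1, 3 and 4, ca-Nfatc1 replicates 2, 3, 4 and 5 and ca-Nfatc2 replicate 5 (0.0501 to 0.115), or with equal library totals (0.128).

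Of the 10 genes of S-adenosylmethionine supply and methionine salvage, 4 rose and 3 fell with ca-Nfatc1 (28.4% and 28.4% over all genes), and 7 rose and 1 fell with ca-Nfatc2 (35.7% and 32.8% over all genes). Mat2a, the methionine adenosyltransferase of most tissues outside liver, rose from 4392 ± 650 normalized expected counts to 6887 ± 513 in ca-Nfatc1 islets and 10840 ± 1400 in ca-Nfatc2 islets (limma adjusted p = 2.39e-05 and 3.16e-09). Mat1a, the liver form, rose from 1522 ± 162 to 3749 ± 255 and 3284 ± 420 (limma adjusted p = 4.96e-10 and 3.55e-09). Mat1a was lower with ca-Nfatc2 than with ca-Nfatc1 on all 5 days (log2 difference -0.20), which was not called (limma adjusted p = 0.0664) but passed with the day as a block (0.00593), without GFP replicate 1 (0.0411) and without ca-Nfatc2 replicate 1 (0.0133). Mtap, which clears the methylthioadenosine left over by Srm and Sms, rose with ca-Nfatc2 from 537 ± 33.7 to 909 ± 73.3 (limma adjusted p = 4.21e-08) and stood at 551 ± 38.9 with ca-Nfatc1 (limma adjusted p = 0.695). Apip and Enoph1, later steps of the salvage path, were not called in any comparison.

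In the polyamine transport list, Slc22a2 stood furthest from its GFP level. It encodes the organic cation transporter OCT2, for which putrescine is among the known substrates. It had 0.96, 1.34, 3.35, 2.22 and 2.76 normalized expected counts in GFP islets, so that the control level rests on a few reads per library. It had 420.3 to 651 in ca-Nfatc1 islets and 112 to 187 in ca-Nfatc2 islets, above every GFP library. The log2 differences of 7.38 and 5.57 depend on the pseudocount and were 5.39 and 3.64 with a pseudocount of 10. Slc22a2 passed the filter only through the ca-NFAT libraries, where it is high, so no p against GFP is given for it. Slc3a2, the heavy chain shared by several amino acid exchangers, y+LAT2 among them, fell from 5258 to 3503 and 4208 (limma adjusted p = 3.21e-05 and 0.00491), and its difference between the ca-NFATs (0.26, limma adjusted p = 0.0254) was lost on leaving out ca-Nfatc1 replicate 1 (0.0719) or either of ca-Nfatc2 replicates 4 and 5 (0.0679 and 0.0528). Slc18b1, a vesicular polyamine transporter, rose with ca-Nfatc1 from 195 to 253 (limma adjusted p = 0.00817, but 0.112 under quantile normalization), and its difference between the ca-NFATs passed with the day as a block (0.0385 against 0.0829) and without ca-Nfatc1 replicate 1 (0.025). Slc12a8 was not called in any comparison, nor was the lysosomal polyamine exporter Atp13a2, which with ca-Nfatc1 had an adjusted p of 0.0167 with the day as a block and 0.0458 without GFP replicate 3 (0.132 otherwise).

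In the urea cycle list, 4 of 8 genes passed the filter. The mitochondrial carriers Slc25a13, for aspartate and glutamate, and Slc25a15, for ornithine, rose with ca-Nfatc2, from 158.5 to 208 and from 368 to 431.5 normalized expected counts (limma adjusted p = 0.001 and 0.0237). Both calls were lost under quantile normalization (0.0506 and 0.134). The Slc25a15 call was also lost without GFP replicate 5 (0.0614) or either of ca-Nfatc2 replicates 2 and 3 (0.0757 and 0.0611), and the difference of Slc25a13 between the ca-NFATs (limma adjusted p = 0.0189) without ca-Nfatc1 replicate 3 (0.052). Asl, which splits the product of Ass1 into arginine and fumarate, was not called in any comparison. Nags, N-acetylglutamate synthase, chosen for mention after its values were seen, was at 2.71 ± 1.78 in GFP islets, 16.1 ± 7.15 in ca-Nfatc1 islets and 17.9 ± 5.92 in ca-Nfatc2 islets (SD, n = 5). Nags too passed the filter only through the ca-NFAT libraries, so no p against GFP is given.

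Ornithine aminotransferase joins ornithine to proline and glutamate, and 9 genes around this step were tested. With ca-Nfatc1, 3 rose and 4 fell (28.4% and 28.4% over all genes), and with ca-Nfatc2, 4 rose and 3 fell (35.7% and 32.8% over all genes). Glul, glutamine synthetase, fell from 11250 ± 874 normalized expected counts to 4967 ± 438 in ca-Nfatc1 islets and 4541 ± 1350 in ca-Nfatc2 islets (limma adjusted p = 2.24e-06 and 2.6e-07), and the 2 ca-NFATs did not differ by the test (0.341) except without ca-Nfatc2 replicate 4 (0.0387). Pycr1, which makes proline, rose from 292 to 379.6 and 522 (limma adjusted p = 0.0123 and 9.41e-06). Aldh4a1, of proline breakdown, was not called in any comparison, but with ca-Nfatc2 it passed with the day as a block (adjusted p = 0.0356 against 0.17).

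Arginine is also spent on creatine, and nitric oxide synthesis needs tetrahydrobiopterin. Of the 9 tested genes of that list, 2 rose and 3 fell with ca-Nfatc1 (28.4% and 28.4% over all genes), and 1 rose and 5 fell with ca-Nfatc2 (35.7% and 32.8% over all genes). Gatm, which forms guanidinoacetate from arginine, rose from 1095 ± 115 normalized expected counts to 2038 ± 312 in ca-Nfatc1 islets and 1688 ± 457 in ca-Nfatc2 islets (limma adjusted p = 0.000174 and 0.00484), and the ca-NFATs differed with the day as a block (0.0416 against 0.129). The creatine transporter Slc6a8 rose with ca-Nfatc1 from 532 ± 63.4 to 1101 ± 60.2 (limma adjusted p = 6.88e-09) and stood at 579 ± 48.4 with ca-Nfatc2 (limma adjusted p = 0.19). Pts, an enzyme of tetrahydrobiopterin synthesis, fell from 1860 to 1439 and 1142 (limma adjusted p = 0.00864 and 2.04e-05), and its difference between the ca-NFATs (0.0174) was lost without ca-Nfatc1 replicate 2 (0.0541). The endothelial synthase Nos3, at 35.9 to 48.3 on average, was not called in any comparison, but its difference between the ca-NFATs passed with the day as a block (0.0451 against 0.125). Ddah1, which degrades dimethylarginines, averaged 14.5 in GFP and 22.8 in ca-Nfatc2 islets (limma adjusted p = 0.0508), which passed with the day as a block (0.0307) and without GFP replicate 3, 4 or 5 or ca-Nfatc2 replicate 2 (0.0439, 0.0235, 0.0198 and 0.0454).

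The genes whose pattern over the 15 libraries was most like that of Arg2, by Pearson's r of log2(value + 1), were Exoc3l4, Tnfsf9, Phactr3, Zfp185 and Mogat2 (r between 0.996 and 0.997). The libraries fall into their 3 groups, so r describes how alike the group levels are. Tnfsf9, the ligand of the receptor 4-1BB, averaged 87.1 normalized expected counts in GFP islets, 3471 in ca-Nfatc1 islets and 2551 in ca-Nfatc2 islets. Mogat2, a monoacylglycerol acyltransferase, averaged 0.675, 190.2 and 122.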

How the data were processed

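RNA of 15 islet libraries, 5 for each virus, was sequenced on an Illumina HiSeq. The authors aligned reads with Bowtie to a RefSeq mm10 reference, estimated expected counts per gene with RSEM (versions not given in the sources used here) and scaled them by median-by-ratio normalization. The deposited values are this normalized signal, which is neither raw counts nor corrected for gene length, and whole reads could not be recovered from it. Columns of the authors' group means, ratios and posterior probabilities, and their table of called genes, were not used.

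Genes with a 75th percentile above 10 over the 15 libraries were kept (14151), and limma 3.58.1 (R 4.3.3, trended variance, two-sided) was fitted to log2(value + 1) of all 15 libraries with one coefficient per group. P-values were adjusted by Benjamini-Hochberg over all kept genes, with a threshold of 0.05. The pseudocount of 1 makes log2 differences understate changes of low genes. The share of false calls in these data, and how often the fit finds small differences in them, was not tested. No member lay below the filter, so the exact test planned for such members was not needed. Depth was 13358317 to 21129008 expected counts per library.

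Each day's islet pool was divided among the 3 viruses, so the day pairs the libraries, and a fit with the day as a block was an alternative. In the check of this pairing, the deviations from the group means had a correlation of 0.0544 to 0.473 (mean 0.219) for 15 pairs that shared a day, and of -0.277 to 0.338 (mean -0.0551) for 60 pairs of different days.

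Other alternatives were pseudocounts of 0.5 and 10, no filter, equal library totals, quantile normalization, limma without trend and leaving out each library. Members and pathway lists were chosen with earlier results of these data known. From each list, up to 3 genes were named, those with the largest difference from GFP among called genes averaging at least 100, together with genes that no comparison called. One result of this rule is not reported here. Levels per kb used the longest matched GENCODE M21 transcript of each gene.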

Additional observations from a re-analysis of the deposited data

Results flagged for a closer look

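Each member was looked at for a library far from the other 4 of its group (Dixon's 95% critical value of 0.71 for 5 libraries), and 2 of 30 groups had one. Arg2 in GFP replicate 3 was at 4.49 normalized expected counts, with the nearest library at 9.46. Nos2 in GFP replicate 5 was at 39.6, with the nearest library at 7.77. Chance gives about 1 in 20 such groups.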

How the results depend on the processing

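Of the 27 member comparisons other than those of Arg2, 19 kept their side of the threshold under all 22 alternatives, and 24 of 594 values changed side, none of them a called value that changed sign. Among the pathway genes taken by the naming rule, 77 of 99 comparisons were unchanged in the same sense, and 62 of 2178 values changed side. With the day as a block, 7, 8 and 5 members were called with ca-Nfatc1, with ca-Nfatc2 and between the ca-NFATs, against 5, 6 and 4 without it. The 8 with ca-Nfatc2 include Nos2, which passed the filter through the ca-NFAT libraries, so its call is a description only. The block raised calls over all genes too, to 64.8%, 74.9% and 58.4% from 56.8%, 68.6% and 49.3%. Apart from the calls given in the report the replicate block changed no other call of a member or of a pathway gene described there. With equal library totals the Arg1 call with ca-Nfatc1 was lost (limma adjusted p = 0.0507). Quantile normalization moved the median log2 difference of all genes from GFP to -0.12 for ca-Nfatc1 and -0.10 for ca-Nfatc2, and the share of calls that were higher from 50% to 38.3% with ca-Nfatc1, and under it Amd1 (adjusted p = 0.0392) and Ass1 (0.0401) were also called lower with ca-Nfatc1. With ca-Nfatc2, quantile normalization also called Smox (0.00883), Dohh (0.0268) and Aldh4a1 (0.0428) lower. Equal library totals called Paox higher with ca-Nfatc1 (0.0453) and Ddah1 (0.0442) and Enoph1 (0.0186) higher with ca-Nfatc2. Both settings called Mat1a lower with ca-Nfatc2 than with ca-Nfatc1 (0.0473 and 0.0462). The difference of Arg2 from GFP lay between 6.97 and 8.02 with ca-Nfatc1 and between 6.28 and 7.32 with ca-Nfatc2. The cause of these changes was not tested. Depth limits the GFP levels of Arg2, Nos2, Nags and Slc22a2, which rest on few reads.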
